A study of Homo sapiens with 6 samples.

Results

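This account covers the mRNAs of general splicing proteins in the human neuroblastoma line SK-N-BE(2) after treatment with the compound that the labels call NEN. The genes are those whose symbols begin with SRSF, HNRNP, SF3A or SF3B, SNRP, LSM or U2AF and follow the naming pattern of these 6 families. Of 249 matching names, 178 pseudogene names were left out, which leaves 71 members among 35130 names in all. They comprise 12 SRSF, 25 HNRNP, 9 SF3, 12 SNRP, 11 LSM and 2 U2AF genes. The rule uses names and no values, though it was set with earlier results of these data known.

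RNA-seq was carried out on 3 libraries of cells given the solvent DMSO for 24 h and on 3 libraries of cells given 1 µM NEN for 24 h. The labels state that each group holds biological replicates and name bone marrow as the tissue of the line, and they name no engineered change in either group. As background, the line carries amplified MYCN. Published work on neuroblastoma uses the abbreviation NEN for niclosamide ethanolamine, a mitochondrial uncoupler, and that identity is background here, since the labels spell out nothing further. The values are in TPM, a unit that scales the reads of a transcript by its length and by the library total, so that levels can be compared between genes. They keep no record of the number of reads, and the depth is therefore unknown.

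Introns are removed from pre-mRNA by the spliceosome, which is built on small nuclear RNAs wrapped in proteins (snRNPs). Sm proteins form a ring around most of these RNAs, LSM proteins form related rings, U2AF and the SF3A and SF3B complexes mark the end of the intron and the branch point, and SR proteins (SRSF genes) and hnRNPs bind the pre-mRNA and decide which sites are used. Many SR protein and hnRNP genes control their own level through exons that send their mRNA to decay. Proliferating cells, among them neuroblastoma with amplified MYCN, are known for high levels of these factors. The values here are sums per gene name, so that splice forms of a gene are not resolved.

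Many splicing factor mRNAs were lower after NEN, with the largest called falls in the SR protein genes SRSF2, SRSF6 and SRSF1. Of 67 members tested, 32 fell and 2 rose, at an adjusted p of at most 0.05 in limma fitted over all genes, and 33 did not pass. A difference is NEN minus DMSO in log2(TPM + 1), with its SE and adjusted p from that fit, and a pair of levels is the mean ± SD of the 3 DMSO libraries and then of the 3 NEN libraries. Among all 12576 genes tested, 16.5% fell and 13.5% rose, and among the 2800 that averaged at least 50 TPM, 26.5% fell and 17.6% rose. Of the 56 members with such a mean, 28 fell and 2 rose. The median difference of the tested members was -0.29, against -0.025 over all genes tested and -0.053 over those that averaged at least 50 TPM. TPM values are relative to each library's total, and in bulk RNA fewer cells with a transcript and less of it per cell cannot be told apart. In the order of the families named above, 8 of 12, 8 of 21, 4 of 9, 6 of 12, 5 of 11 and 1 of 2 tested members fell, and both rises were in SF3B genes. After correction for transcript length and GC content, an alternative added after the data were seen, 25 members fell and 3 rose, and the median was -0.19. Over all 11741 genes in that fit, 1925 fell and 1658 rose, with a median of -0.0067. The 4 members below the filter of a mean of 1 TPM were HNRNPCL1, HNRNPCL2, HNRNPCL3 and HNRNPCL4, intronless relatives of HNRNPC, which were listed at 0 in every library except for 0.0335 TPM of HNRNPCL1 in NEN replicate 3.

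**Figure D1:**
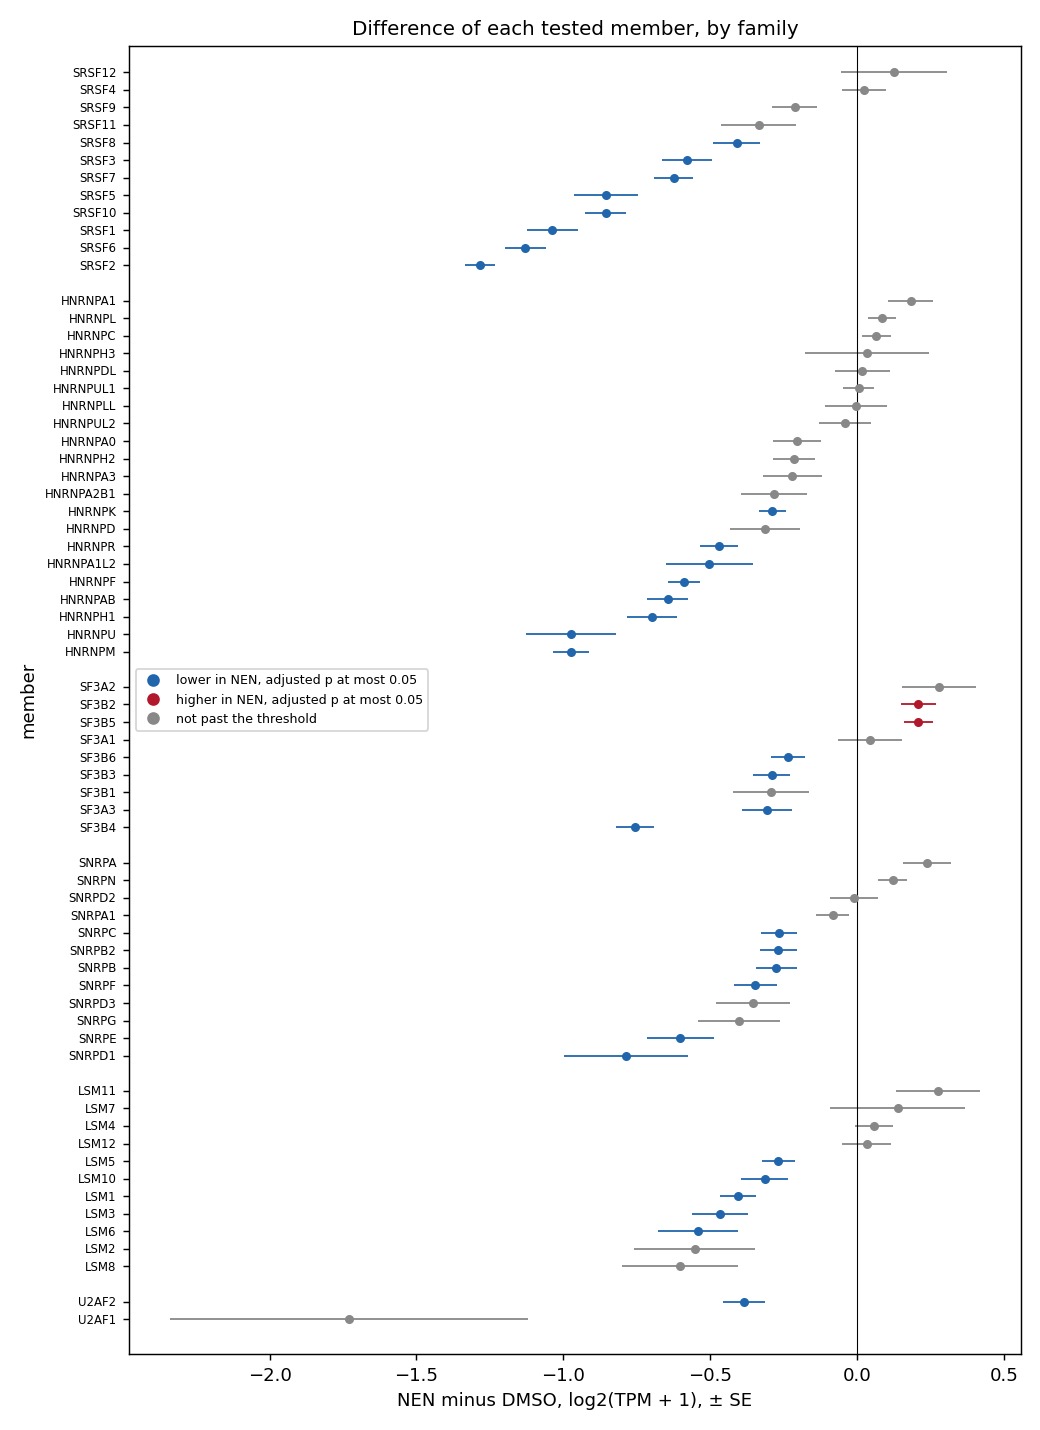
Difference of each of the 67 tested members (points, NEN minus DMSO in log2(TPM + 1), with bars of 1 SE from limma), grouped by family. Blue marks the 32 members that fell, red the 2 that rose and grey the 33 that did not pass the threshold. SRSF2 lies at -1.28, while SRSF4 and SRSF12 lie above 0.

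Together the members took 1.65%, 1.84% and 1.83% of the listed TPM in DMSO replicates 1 to 3 and 1.51%, 1.48% and 1.52% in NEN replicates 1 to 3. The 3 NEN libraries thus lay below the 3 DMSO libraries. Relative to the DMSO mean on the log2(TPM + 1) scale, the median member lay at -0.069, 0.021 and 0.027 in the DMSO libraries and at -0.27, -0.30 and -0.28 in the NEN libraries. Of the 67 tested members, groups did not overlap for 36 that were lower and 8 that were higher in NEN. The shares over all genes tested were 25.0% and 21.8%, and those over genes that averaged at least 50 TPM were 34.8% and 24.8%. The median coefficient of variation of a member was 7.90% among the DMSO libraries and 4.56% among the NEN libraries. It was also lower in NEN over genes that averaged at least 50 TPM (6.80% and 4.87%) and over all genes tested (11.3% and 9.50%).

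**Figure D2:**
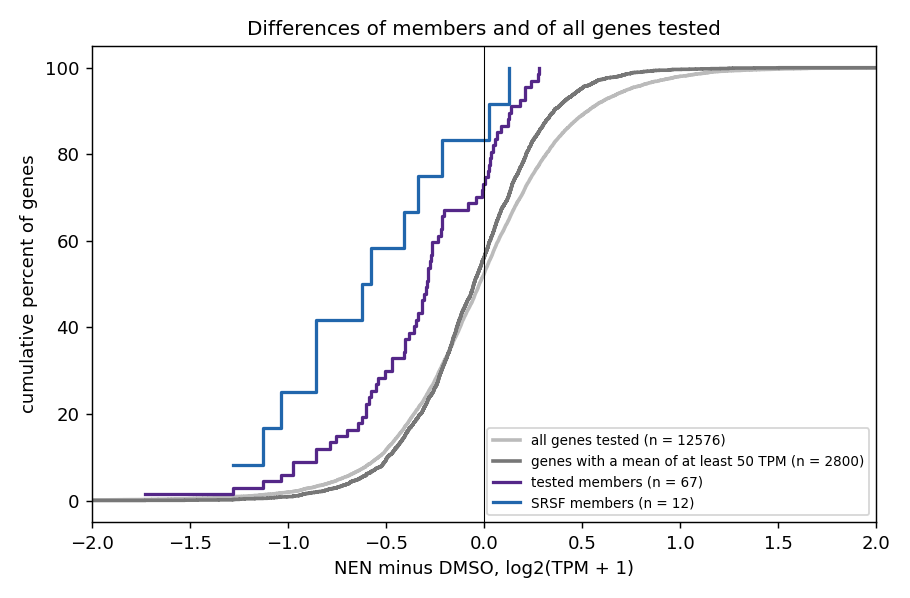
Cumulative percent of genes (vertical axis) by difference, NEN minus DMSO in log2(TPM + 1) (horizontal axis, shown from -2 to 2), for all 12576 genes tested, the 2800 of them that averaged at least 50 TPM, the 67 tested members and the 12 SRSF members. The curve of the members lies to the left of both curves of other genes, with a median of -0.29, and that of the SRSF members further left, with a median of -0.60.

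DMSO replicate 1 differed from the other DMSO libraries for part of the members. It was the lowest DMSO library for 39 of the 67 tested members (58.2%), against 38.0% of all genes tested. For 14 members (20.9%) it lay more than 25% away from the mean of the other DMSO libraries, against 25.5% of all genes tested. The same held for 2 members (2.99%) in DMSO replicate 2 and 3 members (4.48%) in DMSO replicate 3, against 21.0% and 19.4% of all genes. Without it, 40 members fell instead of 32, while over all genes tested the count lower in NEN went from 2074 to 1914. Of the members not called with all 6 libraries, 10 were then called lower. These were SRSF9, HNRNPA0, HNRNPA2B1, HNRNPA3, HNRNPD, HNRNPH2, HNRNPH3, SNRPD3, SNRPG and U2AF1. The calls of HNRNPA1L2 and LSM10 were lost without it (adjusted p = 0.0519 and 0.0546).

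The cells had the markers of their label. All 10 markers of adrenergic neuroblastoma were measured, with a summed level of 5678 to 6449 TPM in DMSO and 6779 to 7084 TPM in NEN libraries. Of these, 7 rose and 0 fell. MYCN was among those that rose, from 1163 ± 104 to 1455 ± 66.0 TPM (difference 0.33 ± 0.075, adjusted p = 0.0169). Of 10 markers of marrow and blood cells, 4 were at 0 in every library (CD3E, MS4A1, HBB and MPO), and the list summed to 0.657 to 2.47 TPM in DMSO and 0.382 to 0.838 TPM in NEN libraries. The 6 stromal markers summed to 21.6 to 26.2 TPM in DMSO and 37.0 to 40.9 TPM in NEN, with none at 0 throughout, and PDGFRB and ACTA2 rose. The 5 epithelial markers summed to 7.82 to 9.18 and 5.55 to 12.9 TPM, and the 4 endothelial markers, with KDR at 0 throughout, to 0.690 to 1.12 and 0.901 to 1.90 TPM, in the same order. The part of the stromal change in the results on splicing factors was not tested.

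SR proteins bind exonic enhancers through RNA recognition motifs and recruit the spliceosome through domains rich in arginine and serine. Of the 12 SRSF genes, 8 fell, 0 rose and 4 did not pass, with a median difference of -0.60. SRSF2, which encodes the nuclear SR protein SC35, had 365, 349 and 345 TPM in the DMSO libraries and 149, 143 and 141 TPM in the NEN libraries. No NEN library came near the DMSO range, and the NEN mean was 40.9% of the DMSO mean (difference -1.28 ± 0.051, adjusted p = 0.000176). Part of its exons (34.7% of their length) is overlapped on the opposite strand by MFSD11, which had 14.6 TPM in DMSO and 16.1 TPM in NEN and was not called, and the files do not say whether strand was used.

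SRSF6, the SR protein SRp55, had 85.7, 77.2 and 79.1 TPM in the DMSO libraries and 34.8, 36.9 and 37.3 TPM in the NEN libraries (difference -1.13 ± 0.070, adjusted p = 0.000238). SRSF1, the founding SR protein and an oncogene in several tumours, had 285, 351 and 352 TPM in the DMSO libraries and 156, 158 and 164 TPM in the NEN libraries (difference -1.04 ± 0.088, adjusted p = 0.000508). For both genes the groups lay far apart, although DMSO replicate 1 was the lowest DMSO library for SRSF1 and the highest for SRSF6. SRSF10, an SR protein that acts as a repressor when dephosphorylated, had 136, 133 and 121 TPM in the DMSO libraries and 66.9, 74.7 and 72.5 TPM in the NEN libraries (difference -0.86 ± 0.070, adjusted p = 0.000442). SRSF5, the SR protein SRp40, had 101, 130.2 and 124 TPM in the DMSO libraries and 60.8, 62.1 and 71.1 TPM in the NEN libraries (difference -0.86 ± 0.11, adjusted p = 0.00183). The highest NEN value of SRSF5 stayed below its lowest DMSO value, that of DMSO replicate 1. SRSF7, a shuttling SR protein linked to mRNA export, had 216, 249 and 240.5 TPM in the DMSO libraries and 156, 148 and 152 TPM in the NEN libraries (difference -0.62 ± 0.067, adjusted p = 0.00105). SRSF3, the smallest SR protein and the member of the family with the highest mean level, had 356, 428 and 427 TPM in the DMSO libraries and 255, 269 and 284 TPM in the NEN libraries (difference -0.58 ± 0.085, adjusted p = 0.00307). Its groups did not overlap either. SRSF8, an intronless relative of SRSF2, had 25.5 ± 0.525 and 18.9 ± 0.934 TPM (difference -0.41 ± 0.080, adjusted p = 0.00881). All 8 of these calls held under each of the 15 alternatives.

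The other 4 SRSF genes did not pass the test. SRSF4, the SR protein SRp75, had 55.3 ± 4.43 and 56.1 ± 1.42 TPM (difference 0.024 ± 0.075, adjusted p = 0.841), with overlapping groups. SRSF12, a low-level relative of SRSF10, had 4.04 ± 0.140 and 4.57 ± 1.07 TPM (difference 0.12 ± 0.18, adjusted p = 0.636). SRSF9 had 325 ± 28.0 and 279.8 ± 16.0 TPM (difference -0.21 ± 0.077, adjusted p = 0.0765), and DMSO replicate 1, with 293 TPM, lay within the NEN range of 268 to 298 TPM. Without that library its adjusted p was 0.0137. Of the exons of SRSF9, 41.2% overlap GATC on the opposite strand. SRSF11, which binds near the end of introns, had 105 ± 13.7 and 83.3 ± 12.5 TPM (difference -0.34 ± 0.13, adjusted p = 0.0877), and NEN replicate 1 lay among the DMSO libraries at 97.6 TPM. Without NEN replicate 1 its adjusted p was 0.0370.

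The summed level of the SRSF genes was 2022, 2266 and 2207 TPM in DMSO replicates 1 to 3 and 1330, 1341 and 1348 TPM in NEN replicates 1 to 3. In DMSO the highest means were those of SRSF3, SRSF2, SRSF1 and SRSF9, and in NEN those of SRSF9, SRSF3, SRSF1 and SRSF7. In DMSO the SDs of neighbours in this order overlap (404 ± 41.6, 353 ± 10.6, 329 ± 38.6 and 325 ± 28.0 TPM). The SDs of SRSF9 and SRSF3 also overlap in NEN (279.8 ± 16.0 and 269 ± 14.4 TPM), as do those of SRSF1 and SRSF7 (159 ± 4.28 and 152 ± 4.21 TPM).

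**Figure D3:**
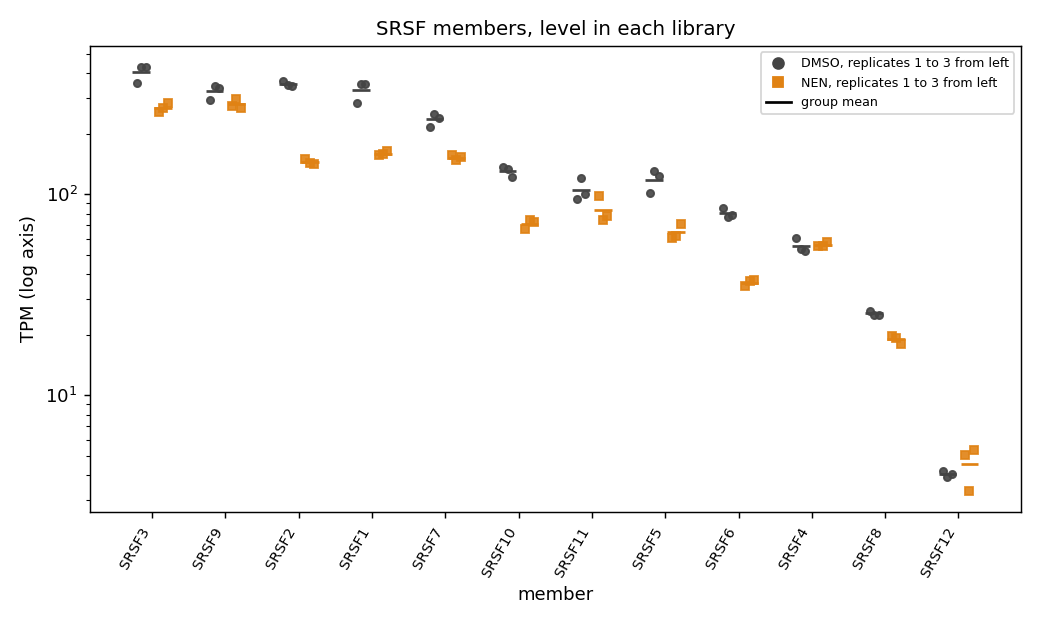
Level of the 12 SRSF members in each library (TPM, log axis; circles DMSO, squares NEN, lines the group means), in order of their mean. For 8 genes the 3 squares lie below the 3 circles, while the groups overlap for SRSF9, SRSF11, SRSF4 and SRSF12.

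Promoters were examined because 32 of the 67 tested members fell and 2 rose. The 250 bases before the RefSeq gene start (GRCh38.p14) were searched on both strands for 4 motifs. These were CACGTG, the E-box bound by MYC proteins and MAX, which reads the same on both strands, CCAAT, the box bound by NF-Y, the sequence CCGGAAG of ETS factors and the sequence TTTGGCGC of E2F factors. Overlapping matches were counted, and none of the motifs contains another. RefSeq windows were matched for 64 of the 71 members, 61 of them tested, and not for SRSF2, HNRNPA1, HNRNPCL3, SF3B3, SNRPD1, LSM1 and LSM6. Each window belongs to 1 annotated start, and some genes have others. CACGTG was found in 7 of the 61 tested members (11.5%) and in 9.18% of 9125 tested genes with a window. It was present in 1 of 27 members that fell and in 6 of 32 that did not pass. In the same order, CCAAT was present in 9 and 14 of them, and CCGGAAG in 10 and 9. TTTGGCGC was found in 1 tested member. Of the 11 SRSF windows, 0 held CACGTG, 2 held CCAAT and 2 held CCGGAAG, where the shares over tested genes were 35.5% for CCAAT and 16.5% for CCGGAAG. The windows of SRSF3 and SRSF5 are shown for those motifs, with capitals marking any match to the 4 motifs.
SRSF3: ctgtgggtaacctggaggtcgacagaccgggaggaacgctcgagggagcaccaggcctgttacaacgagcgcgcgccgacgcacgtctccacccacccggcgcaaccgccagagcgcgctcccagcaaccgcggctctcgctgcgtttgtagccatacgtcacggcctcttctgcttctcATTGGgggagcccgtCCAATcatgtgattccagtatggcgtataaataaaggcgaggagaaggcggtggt
SRSF5: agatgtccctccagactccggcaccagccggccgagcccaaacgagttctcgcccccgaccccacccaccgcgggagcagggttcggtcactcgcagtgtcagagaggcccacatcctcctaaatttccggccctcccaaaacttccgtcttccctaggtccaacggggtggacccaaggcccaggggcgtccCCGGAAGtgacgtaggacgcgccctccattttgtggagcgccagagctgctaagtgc
The SRSF3 window is chr6:36594112-36594361 on the plus strand and holds CCAAT and its complement ATTGG. That of SRSF5 is chr14:69766892-69767141 on the plus strand and holds CCGGAAG.

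hnRNPs coat nascent RNA, and many silence exons or act in mRNA export and stability. Of 21 tested HNRNP genes 8 fell, 0 rose and 13 did not pass, with a median difference of -0.22. HNRNPM, whose protein binds GU-rich RNA and acts in splicing during epithelial-mesenchymal transition, had 366, 383 and 383 TPM in the DMSO libraries and 206, 187 and 183 TPM in the NEN libraries (difference -0.97 ± 0.060, adjusted p = 0.000238). Each NEN library was well below the lowest DMSO library. HNRNPU, a nuclear matrix protein that binds RNA and chromatin, had 322, 208 and 223 TPM in the DMSO libraries and 120.3, 126 and 129 TPM in the NEN libraries (difference -0.97 ± 0.15, adjusted p = 0.00401). DMSO replicate 1 stood above the other DMSO libraries for this gene, and the groups did not overlap with or without it. HNRNPH1, which binds runs of G, had 521, 491 and 451 TPM in the DMSO libraries and 333, 275 and 295 TPM in the NEN libraries (difference -0.70 ± 0.085, adjusted p = 0.00169). HNRNPF, its close relative with the same binding preference, had 242, 243 and 253 TPM in the DMSO libraries and 164, 170.4 and 155 TPM in the NEN libraries (difference -0.59 ± 0.056, adjusted p = 0.000687). For HNRNPH1 and HNRNPF each NEN library lay below each DMSO library. For HNRNPH2, another relative, values were 64.3 ± 4.45 and 55.1 ± 1.70 TPM (difference -0.22 ± 0.072, adjusted p = 0.0600), and a readthrough entry with RPL36A shares part of its exons. That entry averaged 119 TPM in DMSO and 96.4 TPM in NEN and was not called, so that the level of HNRNPH2 is uncertain. HNRNPH3 had 255 ± 76.6 and 252 ± 1.92 TPM (difference 0.033 ± 0.21, adjusted p = 0.922), with 167 TPM in DMSO replicate 1 against 308 and 289 TPM in the others, and without that library its difference was -0.24 (adjusted p = 0.0112 in limma).

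HNRNPAB, a relative of HNRNPA1 that also binds DNA, had 361, 407 and 424 TPM in the DMSO libraries and 245, 258 and 257 TPM in the NEN libraries (difference -0.64 ± 0.069, adjusted p = 0.00107). HNRNPR, which acts in axonal mRNA transport in neurons, had 89.1, 100.4 and 94.6 TPM in the DMSO libraries and 68.3, 68.2 and 67.4 TPM in the NEN libraries (difference -0.47 ± 0.063, adjusted p = 0.00231). HNRNPK, a poly(C)-binding protein, had 709, 718 and 704 TPM in the DMSO libraries and 577, 571 and 597 TPM in the NEN libraries (difference -0.29 ± 0.045, adjusted p = 0.00394). The groups were apart for all 3 genes, and the fall of HNRNPK was the smallest among the 8. HNRNPA1L2, an intronless relative of HNRNPA1, had 8.05 ± 0.678 and 5.42 ± 0.964 TPM (difference -0.50 ± 0.15, adjusted p = 0.0386), and this call was lost under 8 of the 15 alternatives, with adjusted p between 0.0519 and 0.115 there. They include leaving out any 1 library but NEN replicate 3. The calls of the other 7 held under each alternative.

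The most abundant hnRNP mRNAs did not pass. HNRNPA1, a splicing silencer and the member with the highest mean of all, had 1677, 1996 and 1962 TPM in the DMSO libraries and 2138, 2032 and 2203 TPM in the NEN libraries (difference 0.18 ± 0.076, adjusted p = 0.115). All 3 NEN libraries lay above the DMSO libraries. It passed after correction for transcript length and GC content (adjusted p = 0.0252). Its 75 pseudogene names summed to 2.58 to 6.43 TPM, at most 0.383% of the parent. HNRNPA2B1, its partner in the A/B subfamily, had 908, 1242 and 1184 TPM in the DMSO libraries and 920.3, 884 and 908 TPM in the NEN libraries (difference -0.28 ± 0.11, adjusted p = 0.0984). The value of DMSO replicate 1 lay within the NEN range, while the other DMSO libraries were higher, and without it the adjusted p was 0.00151. HNRNPA2B1 also passed with quantile normalization (adjusted p = 0.0174). HNRNPC, which binds runs of U and blocks cryptic sites, had 849 ± 32.9 and 887 ± 16.0 TPM (difference 0.064 ± 0.050, adjusted p = 0.372).

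HNRNPD (AUF1), a regulator of mRNA decay, had 506 ± 82.1 and 403 ± 24.4 TPM (difference -0.32 ± 0.12, adjusted p = 0.0865), and HNRNPA3 had 339 ± 48.6 and 289 ± 1.34 TPM (difference -0.22 ± 0.10, adjusted p = 0.141). In both genes DMSO replicate 1 was at the level of the NEN libraries, and without it the adjusted p was 0.00373 and 0.00307. The single-exon gene HNRNPA0 had 51.9 ± 4.16 and 44.8 ± 1.92 TPM (difference -0.21 ± 0.081, adjusted p = 0.0964), with groups that did not overlap. HNRNPL, which binds CA repeats, had 189 ± 2.44 and 200.3 ± 4.07 TPM, HNRNPLL 44.2 ± 2.80 and 44.2 ± 5.79 TPM, HNRNPDL 299 ± 34.6 and 302 ± 18.7 TPM, HNRNPUL1 222 ± 0.567 and 223 ± 10.2 TPM and HNRNPUL2 27.1 ± 1.89 and 26.3 ± 1.60 TPM. Differences of these 5 lay between -0.042 and 0.084, and groups overlapped for all but HNRNPL. A readthrough entry of HNRNPUL2 with BSCL2 was listed at 32.7 to 39.7 TPM, so that its own level is uncertain.

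**Figure D4:**
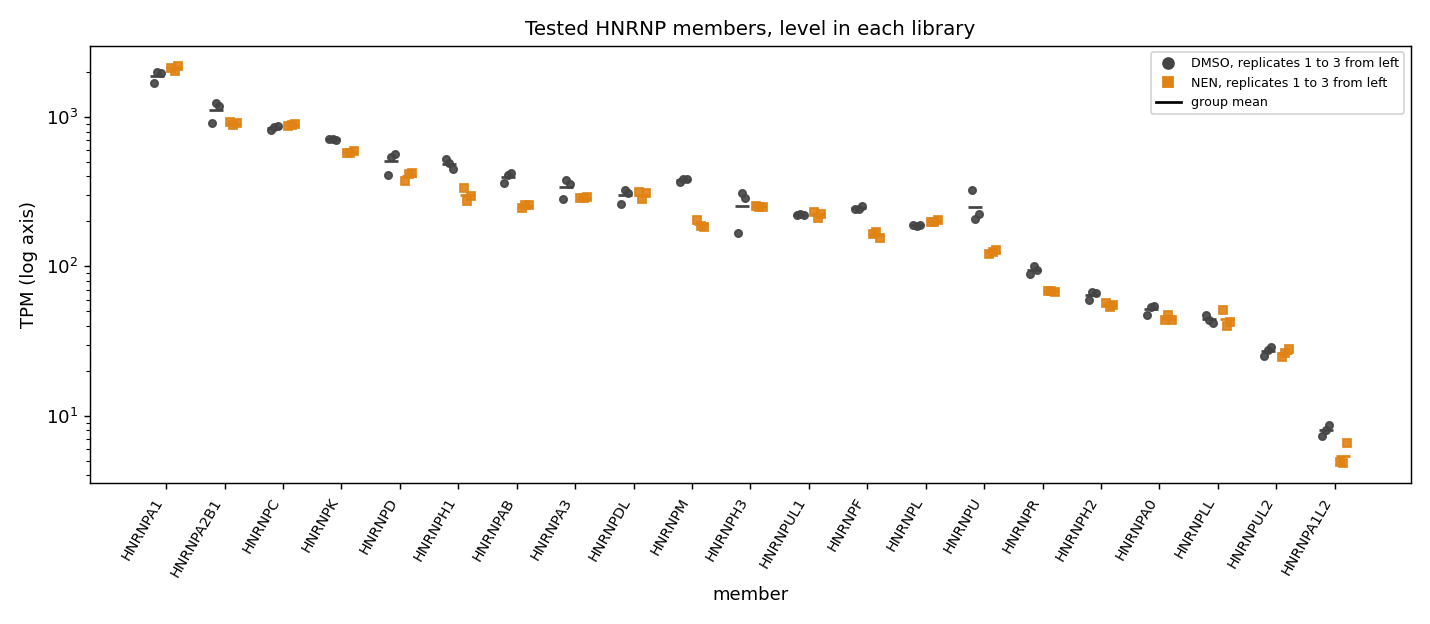
Level of the 21 tested HNRNP members in each library (TPM, log axis; circles DMSO, squares NEN, lines the group means), in order of their mean. The squares lie below the circles for HNRNPM, HNRNPU, HNRNPH1, HNRNPF and HNRNPAB among others, and above them for HNRNPA1 and HNRNPL, while DMSO replicate 1 is the low circle of HNRNPA2B1, HNRNPD, HNRNPA3 and HNRNPH3.

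Of the 20 HNRNP windows, 13 (65.0%) held CCAAT, 6 (30.0%) held CACGTG and 3 held CCGGAAG. In the same order, the shares over tested genes with a window were 35.5%, 9.18% and 16.5%. HNRNPM, the member that fell with CACGTG in its window, and HNRNPAB, with CCAAT at 2 places, are shown.
HNRNPM: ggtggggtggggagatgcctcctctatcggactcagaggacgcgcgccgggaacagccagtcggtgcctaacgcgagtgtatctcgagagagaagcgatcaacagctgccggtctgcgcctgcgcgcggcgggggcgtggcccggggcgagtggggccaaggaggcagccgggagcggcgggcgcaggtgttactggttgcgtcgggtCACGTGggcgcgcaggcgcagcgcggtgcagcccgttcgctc
HNRNPAB: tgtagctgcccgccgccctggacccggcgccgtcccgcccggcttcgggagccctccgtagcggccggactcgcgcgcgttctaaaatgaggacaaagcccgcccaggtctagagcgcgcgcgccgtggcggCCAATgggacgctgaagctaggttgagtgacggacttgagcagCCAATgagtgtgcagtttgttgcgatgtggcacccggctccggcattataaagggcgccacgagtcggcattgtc
The windows are chr19:8444725-8444974 on the plus strand for HNRNPM and chr5:178204283-178204532 on the plus strand for HNRNPAB. The E-box of HNRNPM begins 42 bases before the start.

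The SF3A and SF3B complexes belong to the U2 snRNP, and SF3B1 holds the branch point adenosine. Of these 9 genes 4 fell, 2 rose and 3 did not pass, with a median difference of -0.24. SF3B4, which contacts pre-mRNA upstream of the branch point, had 172, 161 and 155 TPM in the DMSO libraries and 101, 91.6 and 95.9 TPM in the NEN libraries (difference -0.76 ± 0.065, adjusted p = 0.000523). The gap between the groups was wider than for any other SF3 gene on this scale. SF3B3, a large scaffold subunit, had 223, 209 and 203 TPM in the DMSO libraries and 166, 168 and 183 TPM in the NEN libraries (difference -0.29 ± 0.062, adjusted p = 0.0123). Both calls held under each of the 15 alternatives. SF3B6, also called p14 and next to the branch point in the complex, was the SF3 gene with the highest mean, and had 281, 308 and 296 TPM in the DMSO libraries and 239, 256 and 255 TPM in the NEN libraries (difference -0.24 ± 0.057, adjusted p = 0.0197). The SF3B6 call was lost on leaving out DMSO replicate 2, DMSO replicate 3, NEN replicate 1 and NEN replicate 3 in turn (adjusted p 0.0522 to 0.0716), and with quantile normalization (0.0536), with plain limma settings (0.0685) and after length and GC correction (0.310). SF3A3, a subunit that joins SF3A to the U2 RNA, had 99.7, 83.7 and 82.3 TPM in the DMSO libraries and 68.6, 73.6 and 71.4 TPM in the NEN libraries (difference -0.31 ± 0.085, adjusted p = 0.0327). Its call was lost under 10 of the 15 alternatives, with adjusted p between 0.0537 and 0.0973 there. They include leaving out DMSO replicate 2 or any 1 NEN library.

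SF3B2 and SF3B5 were the only members called higher with all 6 libraries. SF3B2, a subunit close to SF3B4, had 227, 207 and 209.6 TPM in the DMSO libraries and 257, 237 and 249 TPM in the NEN libraries (difference 0.21 ± 0.059, adjusted p = 0.0346). The SF3B2 call was lost on leaving out DMSO replicate 2, DMSO replicate 3, NEN replicate 1, NEN replicate 2 and NEN replicate 3 in turn (adjusted p 0.0528 to 0.112), and with no filter (0.0645) and with plain limma settings (0.0997). SF3B5, a small subunit, had 177, 188 and 183 TPM in the DMSO libraries and 212, 214 and 207 TPM in the NEN libraries (difference 0.21 ± 0.049, adjusted p = 0.0185). The SF3B5 call was lost on leaving out DMSO replicate 3, NEN replicate 1, NEN replicate 2 and NEN replicate 3 in turn (adjusted p 0.0512 to 0.0659), and with plain limma settings (0.0727) and after length and GC correction (0.117). Neither rise held under all 15 alternatives. SF3B1, mutated in several cancers, had 308, 243 and 232 TPM in the DMSO libraries and 242, 189 and 205 TPM in the NEN libraries (difference -0.29 ± 0.13, adjusted p = 0.127). DMSO replicate 1 was high and NEN replicate 1 lay within the DMSO range, so that the groups overlapped. SF3A1 had 102 ± 7.77 and 106 ± 14.9 TPM (difference 0.043 ± 0.11, adjusted p = 0.798). SF3A2 had 102 ± 18.5 and 123 ± 1.93 TPM (difference 0.28 ± 0.13, adjusted p = 0.141), with 80.8 TPM in DMSO replicate 1 as its lowest value and with PLEKHJ1 on the opposite strand over 20.3% of its exons.

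Of the 8 tested SF3 genes with a window, 6 (75.0%) held CCGGAAG or its complement CTTCCGG, against 16.5% of all tested genes with a window. The motif was in SF3A3, SF3B4 and SF3B6, which fell, in SF3B2, which rose, and in SF3A1 and SF3A2, which did not pass. The windows of SF3B4 and SF3B6 are shown as members that fell.
SF3B4: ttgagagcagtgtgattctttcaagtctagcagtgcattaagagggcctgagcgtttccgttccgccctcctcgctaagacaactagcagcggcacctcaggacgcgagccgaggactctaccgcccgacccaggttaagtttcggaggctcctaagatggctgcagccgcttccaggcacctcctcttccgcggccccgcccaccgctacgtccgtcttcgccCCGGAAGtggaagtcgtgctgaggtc
SF3B6: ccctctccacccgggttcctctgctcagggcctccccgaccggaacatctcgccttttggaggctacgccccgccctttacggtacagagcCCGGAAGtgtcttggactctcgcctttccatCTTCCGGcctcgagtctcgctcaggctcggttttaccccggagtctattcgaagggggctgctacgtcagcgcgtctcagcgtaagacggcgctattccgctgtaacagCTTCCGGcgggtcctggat
These are chr1:149927804-149928053 on the minus strand for SF3B4 and chr2:24076327-24076576 on the minus strand for SF3B6. The rises of SF3B2 and SF3B5 went with 2 matches and 0 matches of this motif, respectively.

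U2AF2, the subunit that binds the polypyrimidine tract, had 263, 300.5 and 310.1 TPM in the DMSO libraries and 228, 218 and 220.3 TPM in the NEN libraries (difference -0.39 ± 0.070, adjusted p = 0.00692). Its groups did not overlap, and the call held under each alternative. U2AF1, the subunit that reads the AG at the end of the intron, had 43.3, 105 and 158 TPM in the DMSO libraries and 62.1, 14.3 and 20.1 TPM in the NEN libraries (difference -1.73 ± 0.61, adjusted p = 0.0701). Its libraries were widely scattered in both groups, DMSO replicate 1 lay below NEN replicate 1, and its SE was the largest among the members. Without DMSO replicate 1 or without NEN replicate 1 the adjusted p was 0.0308 and 0.0246.

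Sm proteins form the ring common to the U1, U2, U4 and U5 snRNPs. Of the 8 genes of the ring, 4 fell, 0 rose and 4 did not pass, with a median difference of -0.35. SNRPE had 377, 347 and 300.2 TPM in the DMSO libraries and 203, 214 and 257 TPM in the NEN libraries (difference -0.60 ± 0.11, adjusted p = 0.00763). Its call held under each alternative, unlike those of the other 5 SNRP genes that fell. SNRPF, its neighbour in the ring, had 102, 111 and 108 TPM in the DMSO libraries and 88.4, 76.9 and 86.7 TPM in the NEN libraries (difference -0.35 ± 0.073, adjusted p = 0.0120). The SNRPF call was lost after length and GC correction (adjusted p = 0.320). Its 4 pseudogene names summed to 0 in each DMSO library and to 2.78, 0 and 5.40 TPM in NEN replicates 1 to 3. The largest share of the parent was 6.23%. SNRPD1 had 49.9, 71.3 and 87.0 TPM in the DMSO libraries and 31.3, 43.2 and 43.0 TPM in the NEN libraries (difference -0.79 ± 0.21, adjusted p = 0.0287). DMSO replicate 1 was the lowest of its DMSO libraries and still lay above each NEN library. The SNRPD1 call was lost on leaving out DMSO replicate 2, DMSO replicate 3, NEN replicate 1, NEN replicate 2 and NEN replicate 3 in turn (adjusted p 0.0525 to 0.0856), and with no filter (0.0702), with plain limma settings (0.0532) and after length and GC correction (0.0545). SNRPB, which encodes SmB and SmB', had 281, 309 and 329.5 TPM in the DMSO libraries and 251, 263 and 244 TPM in the NEN libraries (difference -0.28 ± 0.070, adjusted p = 0.0233). The SNRPB call was lost on leaving out DMSO replicate 2, DMSO replicate 3, NEN replicate 1 and NEN replicate 3 in turn (adjusted p 0.0663 to 0.0812), and with no filter (0.0503) and with plain limma settings (0.0665).

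SNRPG had 275 ± 49.6 and 207 ± 21.3 TPM (difference -0.40 ± 0.14, adjusted p = 0.0669) and SNRPD3 258 ± 43.1 and 199.5 ± 16.7 TPM (difference -0.36 ± 0.13, adjusted p = 0.0731). In both, DMSO replicate 1 was lowest and lay within the NEN range, and without it the adjusted p was 0.00685 and 0.00545. SNRPG has 20 pseudogene names with a summed level of up to 4.09% of the parent, and GUCD1 overlaps 17.0% of the exons of SNRPD3. SNRPD2, the SNRP gene with the highest mean, had 418, 439 and 505 TPM in the DMSO libraries and 464, 465 and 419 TPM in the NEN libraries (difference -0.012 ± 0.082, adjusted p = 0.929). Its groups overlapped over most of their range.

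SNRPN encodes SmN, which takes the place of SmB in neurons and is read from the same transcript as SNURF. It had 165, 163 and 156 TPM in the DMSO libraries and 174, 175 and 178 TPM in the NEN libraries (difference 0.12 ± 0.049, adjusted p = 0.107). All NEN libraries lay above the DMSO libraries for SNRPN, and it passed with quantile normalization (adjusted p = 0.0383) and after length and GC correction (adjusted p = 0.0476). SNURF was listed at 13.4, 26.2 and 18.6 TPM in DMSO and 9.46, 6.29 and 6.91 TPM in NEN. The sum of both entries was 181.0 ± 7.54 TPM in DMSO and 183.2 ± 2.14 TPM in NEN (SD, n = 3), with overlapping groups, so the division between the 2 names is uncertain.

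Among proteins particular to the U1 and U2 snRNPs, 2 of 4 fell and 0 rose. SNRPC, the U1 protein that steadies pairing with the 5′ splice site, had 243, 259 and 273 TPM in the DMSO libraries and 220.1, 205 and 218 TPM in the NEN libraries (difference -0.27 ± 0.061, adjusted p = 0.0168). The SNRPC call was lost on leaving out DMSO replicate 2, DMSO replicate 3 and NEN replicate 2 in turn (adjusted p 0.0522 to 0.0614), and with plain limma settings (0.0563). SNRPB2, the U2 protein B'', had 98.1, 108 and 111 TPM in the DMSO libraries and 88.7, 85.8 and 87.9 TPM in the NEN libraries (difference -0.27 ± 0.064, adjusted p = 0.0191). The SNRPB2 call was lost on leaving out DMSO replicate 2, DMSO replicate 3, NEN replicate 1, NEN replicate 2 and NEN replicate 3 in turn (adjusted p 0.0506 to 0.0647), and with quantile normalization (0.0585), with plain limma settings (0.0520) and after length and GC correction (0.257). Its partner SNRPA1, the U2 protein A', had 151 ± 6.84 and 142 ± 2.62 TPM (difference -0.084 ± 0.055, adjusted p = 0.288). SNRPA, the U1 protein that binds a stem-loop of U1 RNA, had 166 ± 5.19 and 196 ± 21.1 TPM (difference 0.24 ± 0.082, adjusted p = 0.0648), with the NEN libraries above the DMSO libraries. SNRPA passed without NEN replicate 2 (adjusted p = 0.0314), and with median-ratio scaling (0.0354) and with quantile normalization (0.0350).

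Of the 11 tested SNRP genes with a window, 7 (63.6%) held CCGGAAG, 4 held CCAAT and 0 held CACGTG. In the same order, the shares over tested genes with a window were 16.5%, 35.5% and 9.18%. The window of SNRPB, chr20:2470790-2471039 on the minus strand, is shown as an Sm gene that fell.
SNRPB: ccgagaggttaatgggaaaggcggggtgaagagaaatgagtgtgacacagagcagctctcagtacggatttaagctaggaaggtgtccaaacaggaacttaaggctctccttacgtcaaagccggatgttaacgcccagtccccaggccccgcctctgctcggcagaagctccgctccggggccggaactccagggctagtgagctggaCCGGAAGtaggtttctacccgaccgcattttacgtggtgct

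LSM proteins build 2 rings that share most subunits, one with LSM8 on the end of U6 RNA in the nucleus and one with LSM1 in cytoplasmic mRNA decay. Of LSM1 to LSM8, 4 fell, 0 rose and 4 did not pass, with a median of -0.44. LSM1 had 90.4, 87.2 and 97.2 TPM in the DMSO libraries and 68.7, 68.9 and 69.0 TPM in the NEN libraries (difference -0.41 ± 0.061, adjusted p = 0.00356). Its call held under each alternative, as did that of LSM3, and BAG4, which also fell, overlaps 11.2% of the LSM1 exons on the opposite strand. LSM3, common to both rings, had 18.4, 16.7 and 16.3 TPM in the DMSO libraries and 11.7, 12.5 and 12.1 TPM in the NEN libraries (difference -0.47 ± 0.095, adjusted p = 0.0101). LSM5 had 218, 205 and 226 TPM in the DMSO libraries and 182, 183 and 173 TPM in the NEN libraries (difference -0.27 ± 0.056, adjusted p = 0.0117). The LSM5 call was lost without NEN replicate 3 (adjusted p = 0.0501), and after length and GC correction (0.462). LSM6 had 25.5, 36.7 and 34.7 TPM in the DMSO libraries and 21.8, 21.4 and 21.5 TPM in the NEN libraries (difference -0.54 ± 0.14, adjusted p = 0.0226). DMSO replicate 1 was the lowest DMSO library for LSM6 and lay nearest to the NEN libraries. The LSM6 call was lost on leaving out DMSO replicate 2, DMSO replicate 3, NEN replicate 1, NEN replicate 2 and NEN replicate 3 in turn (adjusted p 0.0607 to 0.0708), and with no filter (0.0531).

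LSM8, the subunit that sets the nuclear ring apart, had 19.3 ± 4.91 and 12.3 ± 2.40 TPM (difference -0.60 ± 0.20, adjusted p = 0.0553) with groups that did not overlap. LSM8 passed without NEN replicate 3 (adjusted p = 0.0482), and with a minimum of 5 TPM (0.0435). LSM2 had 68.4 ± 13.0 and 47.0 ± 13.6 TPM (difference -0.55 ± 0.21, adjusted p = 0.0823), and NEN replicate 3, at 62.6 TPM, lay within the DMSO range. LSM2 passed without NEN replicate 3 (adjusted p = 0.0187). LSM4, the LSM gene with the highest mean, had 376, 419 and 439.6 TPM in the DMSO libraries and 425, 425 and 431 TPM in the NEN libraries (difference 0.057 ± 0.065, adjusted p = 0.549). LSM7 had 202, 372 and 378 TPM in the DMSO libraries and 313, 371 and 326 TPM in the NEN libraries (difference 0.14 ± 0.23, adjusted p = 0.690), with DMSO replicate 1 below all other libraries. For neither gene were the groups apart.

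LSM10 and LSM11 belong to the U7 snRNP, which processes histone mRNA. LSM10 had 59.8, 55.2 and 53.3 TPM in the DMSO libraries and 44.1, 48.5 and 42.1 TPM in the NEN libraries (difference -0.32 ± 0.081, adjusted p = 0.0247). The LSM10 call was lost on leaving out DMSO replicate 1, DMSO replicate 2, NEN replicate 1 and NEN replicate 3 in turn (adjusted p 0.0546 to 0.0834), and with no filter (0.0501) and with quantile normalization (0.0542). LSM11 had 4.38 ± 0.534 and 5.50 ± 0.522 TPM (difference 0.27 ± 0.14, adjusted p = 0.193), with NEN libraries above DMSO libraries at a low level. LSM12, which is no part of these rings, had 40.7 ± 3.45 and 41.5 ± 1.91 TPM (difference 0.031 ± 0.084, adjusted p = 0.814), and a pseudogene entry, LSM12P1, was listed at 25.4 to 46.9 TPM, so that the level of LSM12 is uncertain.

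**Figure D5:**
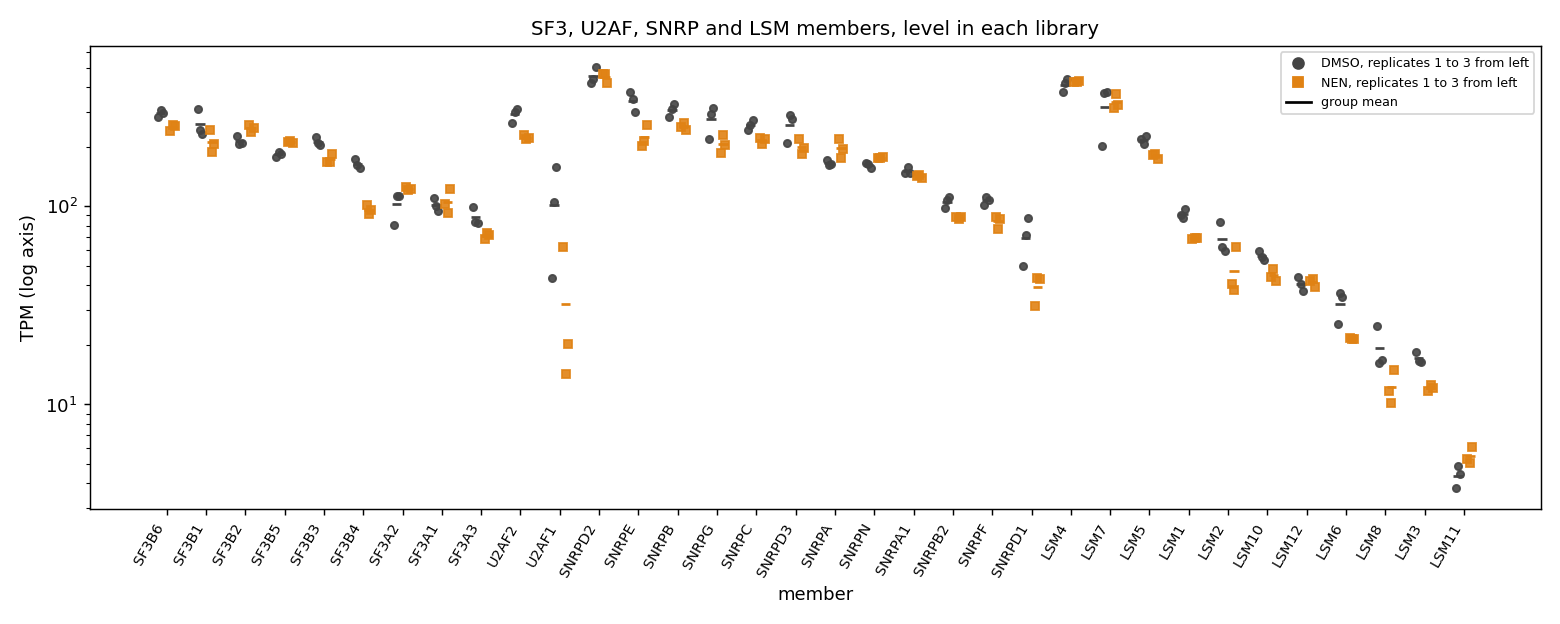
Level of the SF3, U2AF, SNRP and LSM members in each library (TPM, log axis; circles DMSO, squares NEN, lines the group means), in order of the mean within each family. SF3B4, SNRPE, SNRPF, LSM1 and LSM3 have all squares below the circles, SF3B2 and SF3B5 all squares above them, and U2AF1 shows the widest scatter.

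Other genes of the splicing pathway were taken from 6 lists that do not follow the naming rule. Of 156 tested genes in these lists, 59 fell and 6 rose, with a median difference of -0.23. The shares over all genes tested were 16.5% lower and 13.5% higher, and those over genes that averaged at least 50 TPM were 26.5% and 17.6%. SR-related proteins and the kinases that phosphorylate SR proteins had 9 of 23 lower and 0 higher. TRA2B, an SR-like activator of exons, went from 304 ± 20.1 to 145 ± 1.49 TPM (difference -1.06 ± 0.061, adjusted p = 0.000215), TRA2A, its relative, from 75.2 ± 5.72 to 48.2 ± 1.52 TPM, SON, a speckle protein, from 132 ± 12.3 to 78.5 ± 7.57 TPM and SCAF8 from 26.5 ± 4.03 to 18.3 ± 0.753 TPM. Of the regulators and hnRNP-like proteins 20 of 37 fell and 2 rose. SFPQ, a paraspeckle protein, went from 364 ± 11.5 to 190.2 ± 5.23 TPM (difference -0.93 ± 0.050, adjusted p = 0.000215), SYNCRIP, also called hnRNP Q, from 189 ± 3.08 to 129.6 ± 1.69 TPM, FUBP1 from 137 ± 4.40 to 83.4 ± 5.18 TPM and PSPC1, another paraspeckle protein, from 62.8 ± 0.864 to 41.7 ± 1.24 TPM. These 8 genes all fell. The 2 regulators that rose were PCBP2 and MBNL2. PCBP2 went from 880 ± 17.7 to 1164 ± 41.0 TPM (difference 0.40 ± 0.049, adjusted p = 0.00164). MBNL2 went from 7.17 ± 0.318 to 10.5 ± 1.31 TPM (difference 0.48 ± 0.12, adjusted p = 0.0247).

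The snRNP-specific proteins outside the naming rule had 11 of 37 lower and 0 higher. That share of falls was near the 26.5% over genes that averaged at least 50 TPM and above the 16.5% over all genes tested. They include LUC7L, a U1-associated protein (difference -0.92 ± 0.084, adjusted p = 0.000625), SNRNP25 of the minor spliceosome (difference -0.75 ± 0.076, adjusted p = 0.000879), SNRNP40 of U5 (difference -0.40 ± 0.070, adjusted p = 0.00611) and PRPF4 of U4/U6 (difference -0.42 ± 0.075, adjusted p = 0.00651). For snRNP assembly and import, 7 of 17 fell and 0 rose. DDX20, the helicase of the SMN complex (difference -0.78 ± 0.10, adjusted p = 0.00174), WDR77, the partner of PRMT5 in methylation of Sm proteins (difference -0.71 ± 0.089, adjusted p = 0.00177), and PHAX, an export factor of snRNA (difference -0.55 ± 0.14, adjusted p = 0.0214), were lower. SMN1 fell from 3.32 ± 0.212 to 0.971 ± 0.328 TPM (difference -1.15 ± 0.21, adjusted p = 0.00675), but it shares nearly all of its sequence with SMN2, so its value is uncertain. SMN2 had 2.06 ± 0.525 and 0.671 ± 0.590 TPM (difference -0.93 ± 0.34, adjusted p = 0.0779) and did not pass, though its groups did not overlap. In the Prp19 complex and catalytic steps 8 of 27 fell and 3 rose, a share of falls that was also near 26.5% and above 16.5%. Those that fell include DHX15, a helicase that takes spliceosomes apart (difference -0.52 ± 0.060, adjusted p = 0.00134), PRPF19 (difference -0.45 ± 0.063, adjusted p = 0.00267), PPIL1 (difference -0.40 ± 0.071, adjusted p = 0.00639) and BCAS2 (difference -0.37 ± 0.078, adjusted p = 0.0121). Of exon junction and nonsense-mediated decay genes 4 of 15 fell and 1 rose, again a share of falls near 26.5% and above 16.5%. Many genes of this list and of the Prp19 list averaged less than 50 TPM. SMG5 (difference -0.76 ± 0.054, adjusted p = 0.000317), MAGOHB (difference -0.87 ± 0.11, adjusted p = 0.00209) and UPF1 (difference -0.26 ± 0.076, adjusted p = 0.0388) fell, and CASC3, an exon junction component, rose from 74.1 ± 3.62 to 99.6 ± 1.46 TPM.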

How the data were processed

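RNA of SK-N-BE(2) cells was sequenced in 3 DMSO and 3 NEN libraries. Per the submitters' processing notes, kallisto and hg19 were used, while versions and strand settings are not named there or in the labels. The labels' protocols name both poly(A) capture and ribosomal RNA removal. The authors deposited TPM values per gene name, 35130 in each library, with listed totals of 929054 to 933500 TPM and 17285 to 18041 names above 0. Read counts were not recoverable from TPM, and no count test was run.

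Values were taken as log2(TPM + 1) and tested in limma 3.58.1 (R 4.3.3) with trend and robust settings, for 12576 genes that averaged 1 TPM or more, with Benjamini-Hochberg adjustment over all of them and a threshold of 0.05. The pseudocount of 1 understates changes of low genes. An exact permutation test of a single gene cannot go below p = 0.1 with 3 against 3. The fit was also run on simulated data with independent noise of the same spread in both groups, and no result here rests on it. Alternatives covered the replicate block, filters, pseudocounts, scaling, limma settings, each library left out and a correction for transcript length and GC content (loess span 0.3, GENCODE 29).

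The members and lists were chosen with earlier results of these data known. Values in each library were given, per family, for up to 6 members past the threshold with groups apart and a mean of at least 10 TPM, by adjusted p, and for the member with the highest mean. Up to 4 genes of each other list were named by adjusted p. HNRNPU, HNRNPA2B1, SF3B1, U2AF1, LSM7 and SNRPN were added after their values were seen. The same holds for MYCN, SMN2, PCBP2 and MBNL2 of the other lists.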

Additional observations from a re-analysis of the deposited data

How the results depend on the processing

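Of the 34 members called with all 6 libraries, 21 kept their call under all 15 alternatives, and these 21 were all lower in NEN. They comprise 8 of 8 SRSF, 7 of 8 HNRNP, 2 of 6 SF3, 1 of 6 SNRP, 2 of 5 LSM and 1 of 1 U2AF genes. Over the settings that keep all libraries, 25 to 33 members fell, and 23 to 40 on leaving out 1 library. The count of members that rose was 1 with no filter, 4 with quantile normalization and 0 with limma without trend and robust settings, where the main count was 2, and it ranged from 0 to 2 on leaving out 1 library. Over all genes, the count higher in NEN ranged from 1063 to 1554 on leaving out 1 library, against 1699, and the lowest value was that without NEN replicate 1.

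With the replicate number as a block, 2 members rose and 33 fell. HNRNPD, SF3B1 and SNRPG were then called (adjusted p = 0.0366, 0.0280 and 0.0274 in limma), HNRNPA1L2 and SF3A3 were lost (0.0526 and 0.0657), and no other member's call changed. Over all genes the block gave 1328 higher and 1649 lower. Deviations of same-numbered libraries correlated at 0.0117, -0.00755 and -0.0279, so the numbers were not taken to pair the samples.

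Some members that were not called changed sign. With median-ratio scaling HNRNPLL was at 0.022 and SNRPD2 at 0.016. Quantile normalization gave -0.017 for HNRNPC, 0.049 for HNRNPLL, 0.0057 for HNRNPUL2 and 0.023 for SNRPD2. After length and GC correction HNRNPLL was at 0.12, HNRNPUL1 at -0.055, SF3A2 at -0.0074, SNRPA1 at 0.048, LSM4 at -0.078 and LSM7 at -0.041. Leaving out 1 library moved SRSF4 from -0.015 to 0.088, HNRNPDL from -0.080 to 0.083, HNRNPH3 from -0.24 to 0.20, HNRNPLL from -0.11 to 0.067, HNRNPUL1 from -0.027 to 0.038, HNRNPUL2 from -0.096 to 0.0010, SF3A1 from -0.063 to 0.13, SNRPD2 from -0.069 to 0.067, LSM12 from -0.029 to 0.091, LSM4 from -0.0067 to 0.11 and LSM7 from -0.16 to 0.29. The cause of these changes was not tested. Depth is unknown, so what it limits cannot be given.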
